A study of Mus musculus with 12 samples.

Results

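Transcripts of the fibroblast growth factor (FGF) family were followed in dermal papilla (DP) cells, the mesenchymal cells at the base of the hair follicle, on 2 days late in the growth phase (anagen). Genes whose symbol is Fgf followed by a number were ranked by the mean of their deposited values over the 12 libraries, and the 10 highest of the 14 found in the tables of both days were taken, out of 14986 genes in both tables. They were Fgf10, Fgf7, Fgf2, Fgf18, Fgf11, Fgf13, Fgf14, Fgf12, Fgf1 and Fgf9. Since the mean level chose them, their levels and their order are given as a description with no test. The lowest gene taken, Fgf9, had a mean of 55.9 normalized reads and the highest gene left out, Fgf16, had 42.5. Fgf21, Fgf23 and Fgf5 had means of 10.8, 10.1 and 2.72, and Fgf15, present in the P16 table only, had 3 to 13 reads per library. All 10 members passed the filter on low values, a mean of 10 normalized reads, in every comparison.

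Secreted FGFs act on receptor tyrosine kinases together with heparan sulfate on the cell surface, and the signal runs through the ERK cascade to transcription factors of the Etv group and to feedback inhibitors such as Spry and Dusp6. In skin, Fgf7 and Fgf10 are made by mesenchyme and act on the epithelium next to it through the epithelial splice form of Fgfr2. Fgf1 and Fgf2 lack a classical signal peptide. Fgf9 and Fgf18 are secreted ligands. Fgf11, Fgf12, Fgf13 and Fgf14 carry FGF names but are the FGF homologous factors, which stay inside the cell, are best known as partners of voltage-gated sodium channels, and are not counted among the secreted ligands. Fgf5, the family member best known for ending anagen, was near the lower end of detection here.

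The cells were sorted by FACS for a Cre-dependent YFP reporter, switched on by Cor-cre, a Cre driven from the DP gene Corin. The genotypes compared were control and dMF1/2, in which both alleles of Fgfr1 and of Fgfr2 are floxed (Cor-cre/+; Fgfr1Flox/Flox; Fgfr2Flox/Flox), with 3 mice of each at postnatal day 14 (P14) and 3 at P16. The labels call the controls wild type, whereas the study's methods give them as either Cor-cre/+; Fgfr1Flox/+; Fgfr2Flox/+ or floxed mice without Cre. The reporter needs Cre, so that YFP-sorted controls would carry Cor-cre and 1 floxed allele of each receptor, but the labels do not give this per mouse. All 12 libraries are labelled anagen, and other days were not analysed here.

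The libraries held 19302358 to 29860750 reads. In replicate 1 of both genotypes at P14, Col1a1 took 7.06% and 9.15% of the reads against 13.1% to 17.7% in the other 10. The targeted genes did not pass the test on whole-gene reads, which also hold reads from outside any floxed segment. Fgfr1 ranged from 7855 to 10108 normalized reads in P14 control and from 6451 to 7510.4 in P14 dMF1/2 libraries, and from 8369.8 to 12337 and from 6121 to 7837 at P16 (log2 fold changes of -0.40 and -0.50, limma's adjusted p = 0.501 and 0.130). At P16 Fgfr1 passed once the block of replicate numbers was added (limma's adjusted p = 0.0109) and in DESeq2 (adjusted p = 0.0335). For Fgfr2 the log2 fold changes were -0.11 and -0.01 (limma's adjusted p = 0.974 and 0.978). All 22 genes of a DP marker list were present, and Corin lay between 2736 and 42680 normalized reads. Of a list of 22 follicle keratinocyte genes, 16 were in both tables and summed to 487 to 1229 normalized reads in a library, with Krt5 at 31.0 to 208.

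Fgf10 (ENSMUSG00000021732) lies at chr13:118669791-118792115 on the plus strand of mm10, Fgf7 (ENSMUSG00000027208) at chr2:126034658-126091185 (plus), Fgf2 (ENSMUSG00000037225) at chr3:37348346-37410108 (plus), Fgf18 (ENSMUSG00000057967) at chr11:33117430-33147400 (minus) and Fgf11 (ENSMUSG00000042826) at chr11:69796068-69801857 (minus). The 250 bases upstream of the RefSeq start (GRCm38.p6) are shown for Fgf10 and Fgf7, which moved together across these libraries, and for Fgf2, which moved the opposite way. Capitals mark matches to CTTTG, the short core of TCF/LEF sites, on either strand (CAAAG on the minus strand).
Fgf10, chr13:118714449-118714698: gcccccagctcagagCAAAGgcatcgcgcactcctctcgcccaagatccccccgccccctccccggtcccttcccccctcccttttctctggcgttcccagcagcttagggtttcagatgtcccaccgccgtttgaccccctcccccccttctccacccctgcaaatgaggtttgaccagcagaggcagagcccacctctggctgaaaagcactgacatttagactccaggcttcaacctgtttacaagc
Fgf7, chr2:126034408-126034657: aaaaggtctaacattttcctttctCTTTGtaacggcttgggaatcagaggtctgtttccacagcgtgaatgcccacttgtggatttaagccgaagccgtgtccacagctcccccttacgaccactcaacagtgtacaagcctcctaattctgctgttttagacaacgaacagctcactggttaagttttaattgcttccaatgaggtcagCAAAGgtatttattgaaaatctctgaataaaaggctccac
Fgf2, chr3:37348403-37348652: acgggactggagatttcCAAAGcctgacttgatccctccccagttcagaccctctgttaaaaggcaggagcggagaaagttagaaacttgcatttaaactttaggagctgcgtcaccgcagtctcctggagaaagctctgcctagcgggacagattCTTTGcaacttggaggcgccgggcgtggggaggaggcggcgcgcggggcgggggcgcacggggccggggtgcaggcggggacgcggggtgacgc
Fgf10 holds 1 match and Fgf7 and Fgf2 hold 2 each, but 48.6% of 32851 windows of the same length hold at least 1, and these letters were chosen after the windows had been read. The longer core CTTTGA (13.8% of windows; it contains the short core), the ETS core CGGAAG (13.6%), the AP-1 site TGANTCA (6.75%) and the TATA box TATAAA (12.4%), searched on both strands, had no match in these 3 windows. The 3 windows differ in base composition, with a GC content of 61.2% for Fgf10, 43.6% for Fgf7 and 62.4% for Fgf2 against a median of 52.4% over all windows. The deposited start of Fgf10 lies well upstream of the RefSeq start used here, so that other promoters of this gene were not searched. Of the 10 members, 9 had a window in the table.

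Per kb of exon, Fgf10, Fgf7 and Fgf18 were the most abundant FGF transcripts of P14 control DP cells. Levels between genes are compared as normalized reads, scaled over the 12 libraries, per kb of the union of a gene's exons (mean ± SD, n = 3). In P14 control libraries Fgf10 stood at 944 ± 209, Fgf7 at 881 ± 111 and Fgf18 at 807 ± 339, and neighbours in this order overlapped. Fgf2 followed at 160.1 ± 19.3 and Fgf11 at 102 ± 8.89, each apart from its neighbours. Fgf13 at 49.2 ± 13.0, Fgf14 at 29.8 ± 16.4, Fgf12 at 23.3 ± 9.64, Fgf1 at 20.1 ± 11.5 and Fgf9 at 12.3 ± 2.86 each overlapped the next. Fgf16, not chosen on its total reads, had 26.0 ± 4.14 per kb in the same libraries, above Fgf12, Fgf1 and Fgf9 on this scale.

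Fgf18, then Fgf2, then Fgf11 came after Fgf10 and Fgf7 in all 4 groups. Fgf7 stood above Fgf10 in the 3 other groups, overlapping it in each, and among the lower members Fgf1 and Fgf9 changed places in P14 dMF1/2 and Fgf13 and Fgf14, and Fgf12 and Fgf1, in P16 control libraries. In P14 dMF1/2 libraries Fgf18 was at 295 ± 142 per kb, apart from Fgf7 (1024 ± 245) and Fgf10 (1021 ± 358). In P16 control libraries Fgf7 (465 ± 153), Fgf10 (433 ± 79.2), Fgf18 (391 ± 152) and Fgf2 (256 ± 52.0) overlapped from one to the next. In P16 dMF1/2 libraries Fgf7 (900.4 ± 265) and Fgf10 (843 ± 172) were again apart from Fgf18 (383 ± 137) and Fgf2 (169 ± 8.87). Of the summed per kb level of the 10 members, Fgf10 and Fgf7 made up 31.0% and 29.4% in P14 control, 36.7% and 37.5% in P14 dMF1/2, 24.3% and 25.5% in P16 control, and 32.5% and 34.4% in P16 dMF1/2 libraries. Fgf2 made up 5.43%, 5.29%, 15.0% and 6.65% of it in the same 4 groups.

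**Figure D1:**
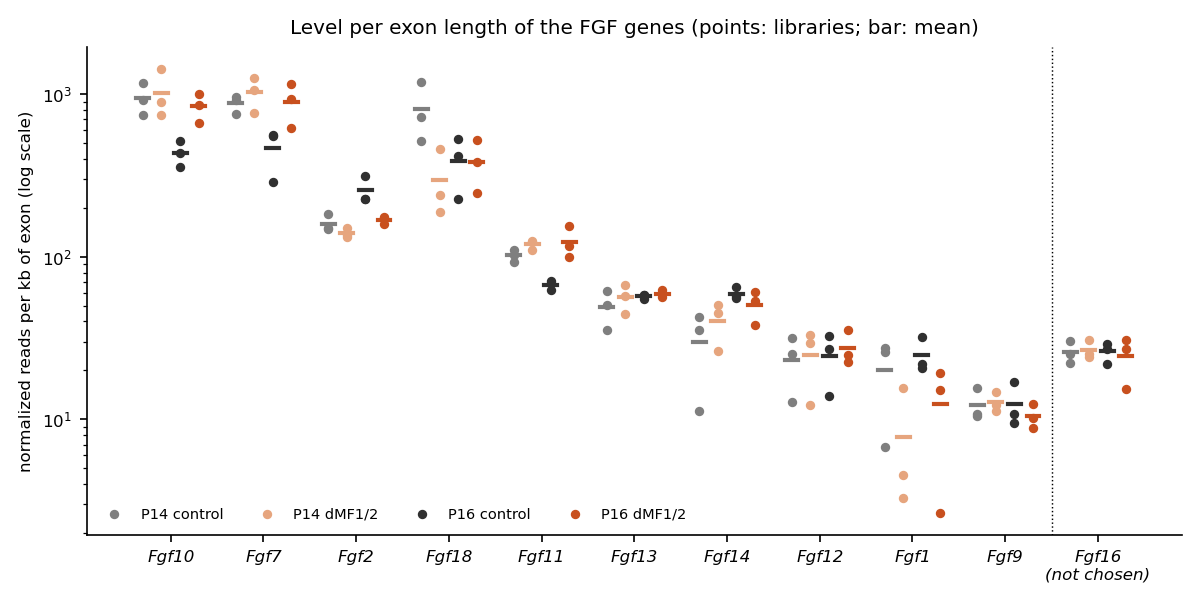
Normalized reads per kb of exon (log axis) of the 10 FGF genes and of Fgf16, the first gene left out, in each of the 12 libraries, coloured by group, with a bar at the group mean. Fgf10 and Fgf7 sit highest in every group, with means from 433 to 1024 per kb, and Fgf9 sits at 10.5 to 12.7.

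At P14, no member passed the test between dMF1/2 and control, and Fgf18 had the largest difference in mean log2 values of the 10. The background share of genes called at P14 was 0.0525% (7 of 13334 genes). Fgf18, a secreted ligand of the subfamily of Fgf8, had 1383, 604 and 851 normalized reads in P14 control replicates 1, 2 and 3. In the dMF1/2 replicates it had 535, 222 and 281. Every dMF1/2 library lay below every control library, as did 6.32% of all genes tested, and within same-numbered libraries the ratio of dMF1/2 to control was 0.387, 0.368 and 0.330. The log2 fold change was -1.47 (SE 0.39, 95% interval -2.39 to -0.54, limma's adjusted p = 0.373, 0.00702 before adjustment).

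Replicate numbers paired the libraries within a day, and with this number as a block the Fgf18 difference passed (limma's adjusted p = 0.0014), the 1 member called in that fit, in which 1.68% of all genes were called. It also passed in DESeq2 (adjusted p = 0.0153), which called 1.55% of all genes. An exact two-sided permutation test of 3 against 3 libraries cannot go below 0.1, the value it gave for Fgf18. At P16 the difference was gone from the means, with Fgf18 at 273, 504 and 634 in control and 631, 298 and 461 in dMF1/2 libraries (log2 fold change -0.00, 95% interval -0.80 to 0.79, limma's adjusted p = 0.997). The groups overlapped, and the ratio within same-numbered libraries was 2.31, 0.591 and 0.728.

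Fgf10 and Fgf7, the papilla's signals to the hair epithelium, did not pass at P14. Fgf10 had 5292, 4171 and 3399 normalized reads in control and 6462, 3373 and 4091 in dMF1/2 libraries (log2 fold change 0.08, 95% interval -0.53 to 0.70). Fgf7 had 2964, 3088 and 2422 in control and 4011, 2465 and 3392 in dMF1/2 libraries (0.20, -0.25 to 0.64). The 2 groups overlapped for both genes, and in both the highest value was that of dMF1/2 replicate 1. Fgf2 had 989, 1005 and 1221 normalized reads in control and 1008, 921 and 889 in dMF1/2 libraries (log2 fold change -0.19, 95% interval -0.44 to 0.07).

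At P16, Fgf10 and Fgf11 were higher in dMF1/2 than in control libraries, the 2 members called of 10, against a background of 4.32% of all genes called (2.18% higher, 2.14% lower). Fgf7 was higher and Fgf2 lower in every dMF1/2 library without passing. Fgf10 had 1657, 2403 and 2012 normalized reads in P16 control replicates 1, 2 and 3. It had 3119.8, 4032 and 4714 in the dMF1/2 replicates. The groups did not overlap, and the dMF1/2 mean was 1.95 times that of control (log2 fold change 0.96, SE 0.18, 95% interval 0.55 to 1.37, limma's adjusted p = 0.0258). In a fit of the 12 libraries together it did not pass (limma's adjusted p = 0.0526).

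Fgf7 stood at 953, 1818 and 1832 normalized reads in P16 control and at 2067, 3072 and 3804 in P16 dMF1/2 libraries. The groups did not overlap here either, with control replicate 1 the lowest of the 6, and the ratio of dMF1/2 to control was 2.17, 1.69 and 2.08 in same-numbered libraries. The log2 fold change was 0.98 (SE 0.29, 95% interval 0.30 to 1.65), close in size to that of Fgf10 but with a wider interval, and it did not pass (limma's adjusted p = 0.111). It passed with the replicate block (limma's adjusted p = 0.00165) and in DESeq2.

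Fgf2, which binds most FGF receptor forms, was at 2175, 1554 and 1556 normalized reads in control and at 1206, 1097 and 1209.8 in dMF1/2 libraries at P16. Every dMF1/2 library lay below every control library, and control replicate 1 was the highest. The log2 fold change of -0.57 (SE 0.14, 95% interval -0.89 to -0.26) fell just short of the threshold (limma's adjusted p = 0.0586). It passed with the replicate block (limma's adjusted p = 0.0172), in the fit of the 12 libraries and in DESeq2 (adjusted p = 0.00475). With the block 4 of the 10 members were called, Fgf10, Fgf7, Fgf11 and Fgf2, where 10.4% of all genes were.

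Fgf11, a homologous factor that is not secreted, had 192, 221 and 212 normalized reads in control and 363, 309 and 479 in dMF1/2 libraries at P16. All 3 dMF1/2 libraries were above all 3 controls, 1.84 times higher in the mean (log2 fold change 0.86, SE 0.16, limma's adjusted p = 0.0285). Across members, 3 were higher without overlap (Fgf10, Fgf7 and Fgf11) and 2 lower (Fgf2 and Fgf1), where 12.9% and 11.6% of all genes were. The calls rest on single libraries. No member was called without control replicate 1, without control replicate 3 or without dMF1/2 replicate 3, and 1 was called without dMF1/2 replicate 1 or 2, while the log2 fold change of Fgf10 stayed between 0.83 and 1.12 over the 6 libraries left out in turn.

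Fgf1, whose product binds all FGF receptors, was lower in dMF1/2 libraries within all 3 same-numbered pairs on both days, with uneven sizes. At P14 it had 139.7, 36.5 and 148 normalized reads in control and 17.7, 24.5 and 84.4 in dMF1/2 libraries, and the groups overlapped. At P16 it had 115, 177 and 121 in control and 84.3, 107 and 14.8 in dMF1/2 libraries, with no overlap. The lowest values, 17.7 and 14.8, came from dMF1/2 replicate 1 at P14 and dMF1/2 replicate 3 at P16. The log2 fold changes of -1.42 (95% interval -3.12 to 0.27) and -1.37 (-2.85 to 0.12) did not pass (limma's adjusted p = 0.789 and 0.305). Single libraries set their size, from -2.08 to -0.98 at P14 and from -1.89 to -0.50 at P16 as each was left out, the last without dMF1/2 replicate 3.

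The other 4 members, Fgf13, Fgf14, Fgf12 and Fgf9, overlapped between the genotypes on both days. Fgf13 and Fgf14, partners of sodium channels in neurons, had log2 fold changes of 0.21 and 0.60 at P14 and 0.06 and -0.24 at P16. The P14 value of Fgf14 was 0.010 without control replicate 1 and 0.95 without control replicate 2. Fgf13 had the narrowest interval of any member at P16, -0.18 to 0.30. Fgf12 and Fgf9 had 0.08 and 0.06 at P14 and 0.23 and -0.19 at P16, and the adjusted p of limma for these 4 was between 0.540 and 0.999.

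**Figure D2:**
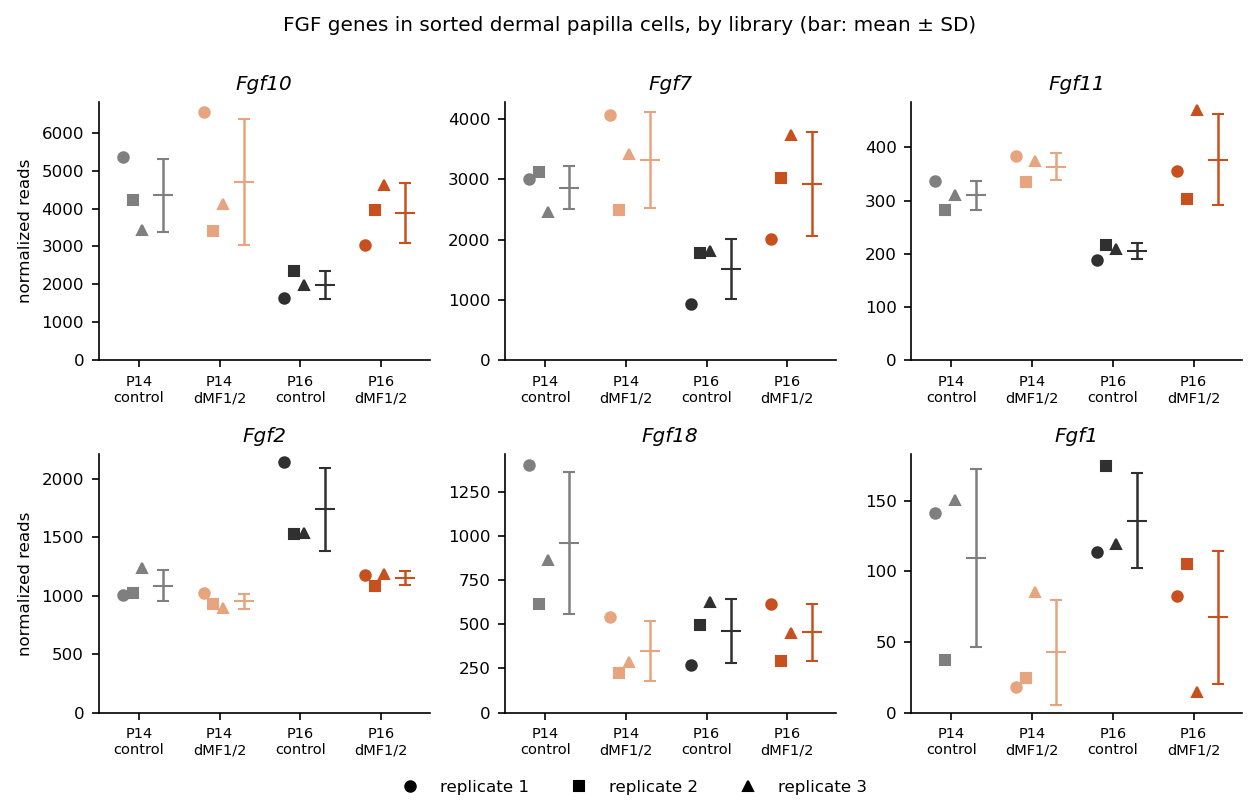
Normalized reads, scaled over the 12 libraries, of 6 FGF genes in each library (symbols by replicate number) with the mean ± SD of the 3 libraries of a group beside them; each panel starts at 0. The P16 control libraries of Fgf10, Fgf7 and Fgf11 sit below the 9 others and those of Fgf2 above them, and the P14 dMF1/2 libraries of Fgf18 sit below the P14 control libraries.

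From P14 to P16 in control mice, Fgf10, Fgf7 and Fgf11 fell and Fgf2 rose, 4 members called of 10 against 14.5% of all genes (6.26% higher, 8.28% lower). These values are scaled over the 12 libraries. The share of mitochondrial reads was 1.06% to 1.36% in P14 control and 0.623% to 0.854% in P16 control libraries, without overlap, and its part in the changes between days was not tested. Fgf10 was at 5359, 4231 and 3444 normalized reads in P14 control and at 1633, 2362 and 1987 in P16 control libraries. Its mean fell to 0.459 of that at P14 (log2 fold change -1.12, SE 0.25, 95% interval -1.66 to -0.57, limma's adjusted p = 0.0153). Fgf7 was at 3001, 3132 and 2454 and then at 939, 1787 and 1809.5 (log2 fold change -0.97, SE 0.28, limma's adjusted p = 0.0405). For both genes all P16 control libraries were below all P14 control libraries, and replicate 1 was the lowest at P16.

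Fgf2 was at 1002, 1019 and 1237 normalized reads in P14 control and at 2144, 1528 and 1537 in P16 control libraries. It was the member that rose, to 1.60 times its P14 mean, with no overlap (log2 fold change 0.66, SE 0.13, 95% interval 0.38 to 0.95, limma's adjusted p = 0.00988). Fgf11 was at 337, 283 and 310.3 and then at 189, 217 and 209 (log2 fold change -0.59, SE 0.15, limma's adjusted p = 0.0231). Fgf14 was at 47.2, 177 and 149 and then at 238, 235 and 272, without overlap, and did not pass (log2 fold change 1.19, 95% interval 0.28 to 2.10, limma's adjusted p = 0.0748). The P14 value of 47.2 is from replicate 1, which stood apart in Col1a1, and without that library the log2 fold change was 0.60 (limma's adjusted p = 0.192). Without P14 control replicate 2 it was 1.55 and passed (limma's adjusted p = 0.0493).

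Without overlap, 3 members were lower and 2 higher at P16 in control mice, where 18.4% and 17.5% of all genes were. Fgf18 had a log2 fold change of -1.05 (95% interval -1.96 to -0.13, limma's adjusted p = 0.112). For Fgf13, Fgf12, Fgf1 and Fgf9 it lay between -0.01 and 0.52, with limma's adjusted p of 0.393 or more. The count of 4 fell with libraries left out, and so did that over all genes, from 1951. It was 1 (Fgf2) without P14 control replicate 1 and without P16 control replicate 1, where 782 and 693 of all genes were called. It was 2 without P16 control replicate 3 (Fgf2 and Fgf10, 971 of all genes). In a fit of the 6 control libraries alone it was 2 (Fgf10 and Fgf11, 806 of all genes). Without replicate 1 of both genotypes at P14, which stood apart, it was also 2 (Fgf2 and Fgf10, 951 of all genes). Fgf7 then had an adjusted p of 0.0963 in limma.

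In dMF1/2 mice, none of the 10 members passed limma's test between P14 and P16, where 5.8% of all genes were called. No member had an unadjusted p under 0.05 there, and none was called in edgeR or DESeq2. The log2 fold change was -0.24 for Fgf10 (95% interval -0.78 to 0.30), -0.20 for Fgf7 (-0.82 to 0.42), 0.03 for Fgf11 (-0.29 to 0.35) and 0.27 for Fgf2 (-0.01 to 0.56). Fgf2 was the member whose groups did not overlap, at 1022, 929 and 897 normalized reads in P14 dMF1/2 and 1179, 1079 and 1187 in P16 dMF1/2 libraries, higher at P16, where 13.2% of all genes were. That these 4 passed in control and not in dMF1/2 mice does not show that the genotypes differ, which was tested separately.

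The test of the difference between genotypes in the change from P14 to P16 called no gene in limma, where 648 of 13415 genes (4.83%) had an unadjusted p under 0.05, and 7 genes (0.0522%), none of them a member, in DESeq2. Of the 10 members, 3 had an unadjusted p under 0.05. The difference was 0.88 on the log2 scale for Fgf10 (95% interval 0.11 to 1.64, 0.0288 before adjustment in limma), 0.62 for Fgf11 (0.17 to 1.07, 0.0116 before adjustment in limma) and 1.46 for Fgf18 (0.16 to 2.76, 0.0304 before adjustment in limma). None of them was near the threshold after adjustment. For Fgf7 the difference was 0.77 (95% interval -0.10 to 1.65) and for Fgf2 -0.39 (-0.80 to 0.02). These comparisons share their libraries with those above.

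**Figure D3:**
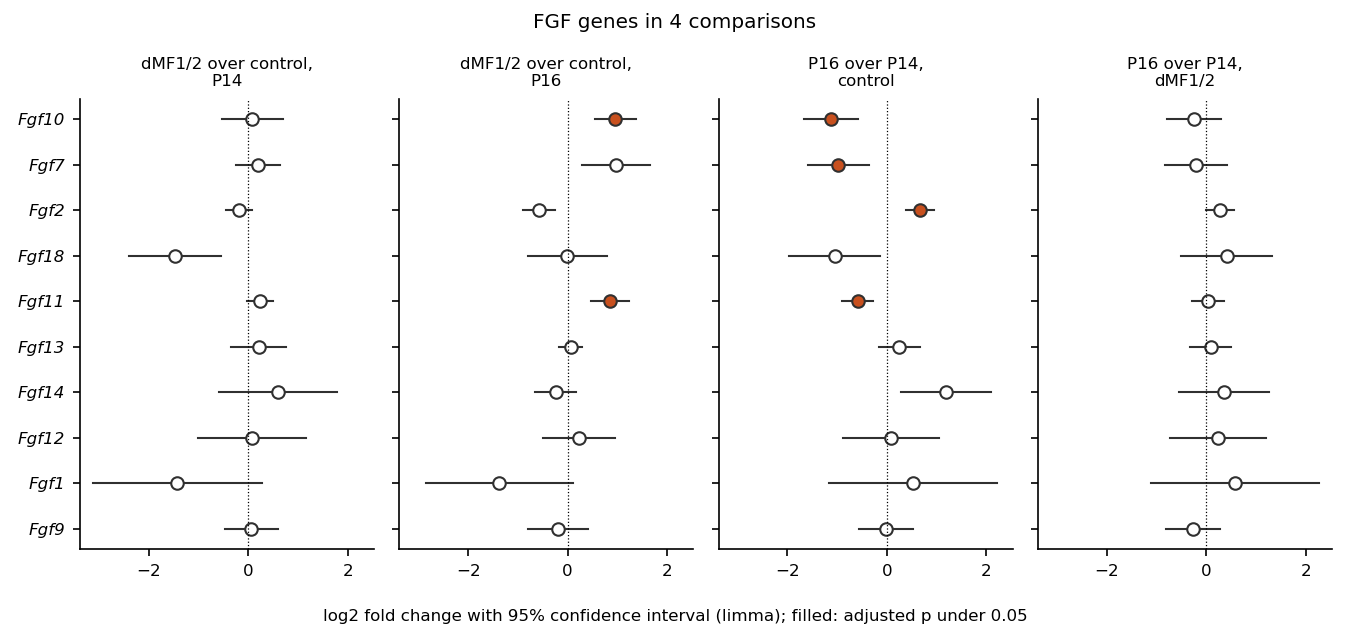
Log2 fold changes (points) with 95% confidence intervals (lines) of the 10 FGF genes in the 4 comparisons between 2 groups, from limma; filled points passed an adjusted p of 0.05. Fgf10 and Fgf11 passed between genotypes at P16, Fgf10, Fgf7, Fgf2 and Fgf11 between days in control mice, and no member passed at P14 or between days in dMF1/2 mice.

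Fgf7 and Fgf10 kept a narrow ratio to each other while both changed. Within a library there were 0.560 to 0.911 normalized reads of Fgf7 for each of Fgf10 over all 12 libraries, and replicate 1 had the lowest ratio in each of the 4 groups. For Fgf2 there were 0.187, 0.241 and 0.359 reads of Fgf2 for each of Fgf10 in P14 control and 0.156, 0.273 and 0.217 in P14 dMF1/2 libraries. In P16 control libraries the ratio was 1.31, 0.647 and 0.774, above the 9 other libraries, and in P16 dMF1/2 libraries it was 0.386, 0.272 and 0.257. Across the 12 libraries, which share 4 groups, Pearson's r on the log2 scale was 0.935 between Fgf10 and Fgf7, 0.834 between Fgf10 and Fgf11, and -0.836 between Fgf10 and Fgf2. Among the homologous factors it was between 0.60 and 0.852 for the 3 pairs of Fgf12, Fgf13 and Fgf14, highest between Fgf13 and Fgf14, while Fgf11 had -0.135, -0.433 and -0.118 with Fgf13, Fgf14 and Fgf12. Replicate 1 of both genotypes at P14, which stood apart in Col1a1, had the lowest values of Fgf12, Fgf13 and Fgf14 among the 12 libraries. In control and dMF1/2 these were 47.2 and 111 normalized reads for Fgf14, and 142 and 180 for Fgf13. How far the r of these 3 pairs rests on them was not tested. Fgf18 had r of 0.281 with Fgf10 and 0.182 with Fgf7.

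**Figure D4:**
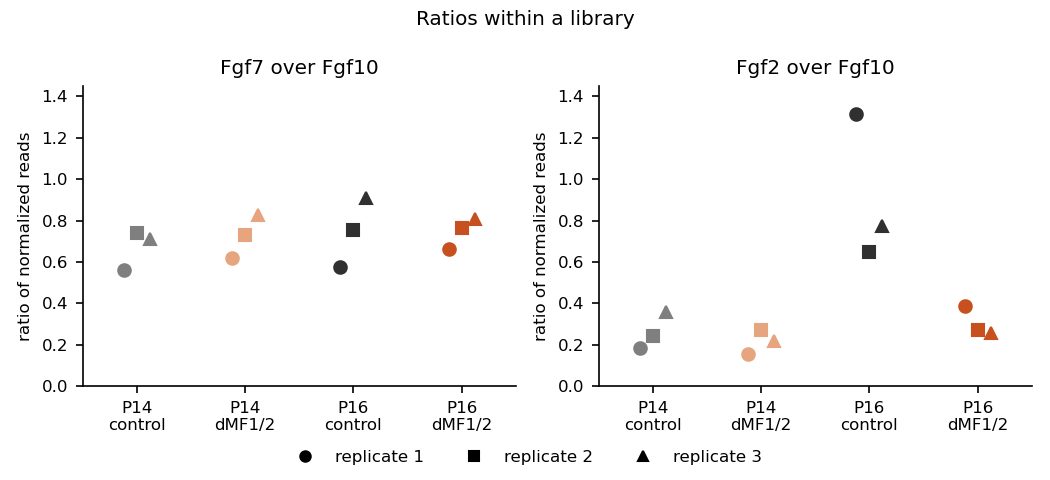
Ratio of normalized reads within each of the 12 libraries, Fgf7 over Fgf10 on the left and Fgf2 over Fgf10 on the right, by group and replicate number, on axes that start at 0. Fgf7 over Fgf10 stays between 0.560 and 0.911, and Fgf2 over Fgf10 is highest in the P16 control libraries, at 0.647 to 1.31.

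For members whose mean was 100 normalized reads or more, the genes most like them were sought among the 13415 genes tested over the 12 libraries. Those most like Fgf10 by Pearson's r were Prkar1a (0.991), Abhd3 (0.978) and Nsg1 (0.974), of which Prkar1a encodes a regulatory subunit of protein kinase A. By Spearman's rank correlation Corin, the DP gene that drives the Cre, and Pcsk5 were level with Prkar1a at 0.986. Nearest to Fgf7 were Jam2 (0.977), Steap2 (0.973) and Galnt3 (0.972), and to Fgf2 Dab2ip (0.976), Abhd2 (0.970) and 4930523C07Rik (0.967). Nearest to Fgf18 were Vav3 (0.942), Stac (0.936) and Isyna1 (0.934), and to Fgf11 Usp11 (0.958), Wfs1 (0.956) and Gprasp2 (0.953). For Fgf13, Fgf14 and Fgf12 the nearest genes were Fcgr3 (0.953), Cyp27a1 (0.968) and Gmppa (0.976).

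Some genes of the DP marker list were called in the comparisons that called Fgf10. The list holds Rspo1 to Rspo4 and Notum, which the study itself reports as changing in the DP during anagen. It is therefore not independent of the study's results. Rspo1 to Rspo4 were among those called between days in control mice, and Rspo2 and Rspo3 among those called between genotypes at P16. The 22 genes had a median log2 fold change of -0.99 from P14 to P16 in control mice (10 lower and 0 higher of 22, where 8.28% and 6.26% of all genes were) and of 0.94 in dMF1/2 against control at P16 (6 higher and 1 lower, where 2.18% and 2.14% were), against medians over all genes of 0.01 and -0.00. At P16 the summed list was 90120.4 to 155033 normalized reads in control and 184411 to 254004 in dMF1/2 libraries, and at P14 it was 168375 to 293027. Corin alone was at 2736 to 12145 in P16 control and at 14983 to 26844 in P16 dMF1/2 libraries. In sorted bulk samples, fewer cells of a type and less RNA per cell cannot be told apart, and the part of the DP genes as a whole in the changes of Fgf10 and Fgf7 was not tested. Of 6 adipocyte genes, 2 were in both tables, and Plin1 was lower at P16 in control mice (log2 fold change -2.37, limma's adjusted p = 0.00558) and higher in dMF1/2 libraries at P16 (2.43, limma's adjusted p = 0.00604). The other, Fabp4, had log2 fold changes of the opposite sign, 0.66 and -1.03, and did not pass. The adipocyte sum was 223 to 430 normalized reads in P16 control and 356 to 561 in P16 dMF1/2 libraries, which overlap, Adipoq was not in both tables, and the part of this list was not tested.

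A list of 11 genes induced by tissue dissociation had its highest sums in P16 control libraries, as Fgf2 had its highest values, though its ranges in P14 and P16 control libraries overlapped. Its sum was 382623 to 543051 normalized reads in P16 control libraries, 340774 to 362647 in P16 dMF1/2, 251316 to 409905 in P14 control and 311949 to 329277 in P14 dMF1/2 libraries. In control mice 3 of the 11 (Atf3, Hspa1b and Hspa1a) were called higher at P16, where 6.26% of all genes were, and at P16 Atf3, 1 of 11, was called lower in dMF1/2 libraries, where 2.14% were. The endothelial list of 8 genes summed to 1137 to 1702 in P14 control, 1107 to 1238 in P14 dMF1/2, 1126 to 2194 in P16 control and 1109 to 1398 in P16 dMF1/2 libraries. In control mice 1 of the 8 was called higher at P16 (Emcn) and 1 lower (Tek), where 6.26% and 8.28% of all genes were, and none was called between genotypes. The median log2 fold change of the 8 was 1.33 between days in control mice and -0.81 in dMF1/2 against control at P16, in the directions of Fgf2, and Pecam1 was at 40.2 to 82.0 in P14 control, 79.2 to 323 in P16 control and 58.1 to 122 in P16 dMF1/2 libraries. A melanocyte list, with 7 of 8 genes in both tables, summed to 514 to 669 in P14 control and 810 to 903 in P16 control libraries, without overlap, and to 598 to 634 and 762 to 834 in dMF1/2 libraries of the same days. Of its 3 genes tested, Mitf was called higher in control mice at P16. The part of these 3 lists in the changes between days and genotypes was not tested. The hair follicle keratinocyte sum was 487 to 1192 in P16 control and 870.3 to 1079.9 in P16 dMF1/2 libraries, and the ranges overlapped. The median log2 fold change of its tested genes was -0.39 between days in control mice, with Msx2 called lower, 1 of 12. In dMF1/2 against control at P16 it was 0.53, with none of 11 called. These medians have the directions of Fgf10 and Fgf7, and the part of this list was not tested.

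Of 91 other genes of the FGF pathway, 86 were tested at P16, and 8 were called in dMF1/2 against control (9.30%, against 4.32% of all genes), 1 higher and 7 lower. With the replicate block 29 were called, 10 higher and 19 lower, where 10.4% of all genes were, and with DESeq2 22, 7 higher and 15 lower, where 8.35% were. Of the 20 ERK targets and feedback inhibitors, 19 were tested and 5 fell, the median being -0.35. They included the transcription factor Etv4 (log2 fold change -2.41, limma's adjusted p = 0.00154), Etv1 (-1.69, limma's adjusted p = 0.00329) and Dusp7 (-1.01, limma's adjusted p = 0.0364). Etv5 (-0.99, limma's adjusted p = 0.00841) and the ERK phosphatase Dusp6 (-0.996, limma's adjusted p = 0.0125) also fell. The calls of Etv4, Etv1 and Etv5 held with any 1 library left out, whereas that of Dusp6 was lost without control replicate 3 (limma's adjusted p = 0.0574) and that of Dusp7 without control replicate 1 or 3 or dMF1/2 replicate 2 or 3 (0.0629 or more). Spry1, Spry2 and Spry4, which restrain receptor signalling, had log2 fold changes of 0.05, -0.15 and -0.45 and did not pass.

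Among the genes that present or modify the ligands, the heparan sulfate proteoglycan Gpc1 was lower at P16 (log2 fold change -1.39, limma's adjusted p = 0.0286), 1 of 17 co-receptor genes tested. Hs3st3a1, a heparan sulfate sulfotransferase, was higher (1.74, limma's adjusted p = 0.0125), 1 of 18 synthesis and editing genes tested. The adaptor Gab2 was lower (-0.48, limma's adjusted p = 0.0459), 1 of 26 transducers tested. These single calls stand against 4.32% of all genes. That of Gab2 was lost whichever library was left out (limma's adjusted p from 0.0503 to 0.154), that of Gpc1 without control replicate 3 or dMF1/2 replicate 2 or 3 (up to 0.0919), and that of Hs3st3a1 without dMF1/2 replicate 3 (0.0604). None of the 5 FGF receptor genes and neither FGF carrier protein gene was called, and 1 of the 2 carrier genes was tested. With the block 2 of the receptor genes were called, Fgfr1 and Fgfr3, in a fit that called 10.4% of all genes. DESeq2, which called 8.35% of all genes, called the same 2. They went in opposite directions, Fgfr1 lower and Fgfr3 higher in dMF1/2 libraries. Fgfr3 had a mean of 702 normalized reads in P16 control and 1204 in P16 dMF1/2 libraries, with overlapping ranges.

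At P14 none of the 85 pathway genes tested was called in limma, where 0.0525% of all genes were. With the block 6 were called (5 lower, 1 higher), where 1.68% of all genes were, and with DESeq2 7 (5 lower, 2 higher), where 1.55% of all genes were. Etv5 and Etv1 were among those called with the block (log2 fold changes of -1.25 and -1.24, limma's adjusted p = 0.00176 and 0.00879, 0.0826 and 0.243 without it), as was Spry4 (-1.19, limma's adjusted p = 0.0113, 0.553 without it). Etv4 (-1.47) and Dusp6 (-0.56) did not pass in limma with or without the block (limma's adjusted p = 0.0773 and 0.105 with it), but passed in DESeq2 (adjusted p = 0.00202 and 0.0395). From P14 to P16 in control mice 16 of 85 were called (18.8%, against 14.5% of all genes), 8 in each direction, and Hs3st3a1 (-1.22, limma's adjusted p = 0.0353) and Spry1 (-0.84, limma's adjusted p = 0.0338) were among those that fell. Both calls were lost without P14 control replicate 1 or 2 or P16 control replicate 1 or 3 (limma's adjusted p up to 0.129 and 0.122). In dMF1/2 mice 5 of 85 rose and none fell, where 246 of 13415 genes were called higher and 532 lower. The share called in either direction was 5.88%, against 5.8% of all genes.

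Overlapping genes bear on 3 members. Fgf2 shares 640 exon bases (9.44% of its exon length) with Nudt6 on the opposite strand, which had a mean of 12.3 normalized reads. Fgf10 and Fgf14 share 2.67% and 5.26% of their exon length with antisense genes that are not in the tables. The libraries were made with a kit that keeps the strand, but the strand setting of the counting is not given in the sources used here.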

How the data were processed

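RNA of YFP-sorted DP cells was depleted of ribosomal RNA and sequenced from 12 mice, 3 of each genotype on each day. The authors used Trimmomatic for trimming, Tophat 2 for mapping to mm10, HTSeq-count for reads per gene (Ensembl, GRCm38.p4) and DESeq2 for normalization, per the labels and the study's methods. The deposited signal values are reads divided by a size factor set over the 6 libraries of a day, and 100% of them were whole multiples of 1 read (within 0.01 reads), so that reads could be recovered. The tables also hold the authors' log2 fold changes, the score of their test and its p-values, which were not used.

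As the values were normalized, limma 3.58.1 (R 4.3.3), with a mean-variance trend, was fitted to log2(value + 1) of genes whose mean was 10 or more, adjusting p over all genes tested (Benjamini-Hochberg, threshold 0.05). Fold changes are on this scale, which understates those of low genes. Genotypes were compared within a day on the deposited scale. Between days, reads of the 14986 genes in both tables were brought to 1 scale (median of ratios, 12 libraries) and fitted as 4 groups. The code was tested on simulated data. Levels per kb use the exon union in the GENCODE annotation of GRCm38. Same-numbered libraries of a day deviated together from their group means (correlations of 0.256 to 0.586, all 6 pairs over 0.1), and those of different days did not (-0.162 to 0.208), so the block was used within a day.

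The text names all members, Fgfr1, Fgfr2, Spry1, Spry2, Spry4, Dusp6, Etv4 and Etv5, at most 3 called genes per pathway list and direction, and, for members with a mean of 100 or more, the 3 genes most like them (only the first for Fgf12, Fgf13 and Fgf14). The members and lists were chosen with earlier results of these data known. Alternatives were edgeR 4.0.16 and DESeq2 1.42.0 on recovered reads, pseudocounts of 0.1 and 10, other filters, TMM scaling, the replicate block, other sets of libraries in the fit, and leaving out each library.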

Additional observations from a re-analysis of the deposited data

How the results depend on the processing

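At P14, 1 member (Fgf18, lower) was called with the replicate block and 1 with DESeq2, and none in the other alternatives. At P16 the block and DESeq2 called 4 each (Fgf10, Fgf7, Fgf11 and Fgf2), where 10.4% and 8.35% of all genes were called. Leaving out 1 library gave 0 to 2 members and 149 to 684 of all genes, against 582 in the main fit. A fit of the 12 libraries called 2 at P16 (Fgf11 and Fgf2) and 595 of all genes, with Fgf10 at an adjusted p of 0.0526 in limma. From P14 to P16 in control mice the fit of the 6 libraries gave 2 members and 806 of all genes, against 1951 of 13415 in the main fit. Leaving out 1 library gave 1 to 4 members and 693 to 1945 of all genes. The block and DESeq2 each gave 5 (Fgf14 in addition), where 2243 and 2580 of all genes were called. The replicate numbers do not pair libraries between days. The counts of 0 between days in dMF1/2 mice and for the difference between genotypes stayed at 0 in every alternative. Pseudocounts, filters, edgeR and TMM scaling changed no call of a member. Over all members, fold changes kept their sign and call in 760 of 840 alternatives. Among the rest, 48 changed sign, all of them of differences that passed no test.

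Log2 fold changes that changed sign when libraries were left out had these ranges. Between genotypes at P14 they were -0.18 to 0.29 for Fgf10, -0.0025 to 0.39 for Fgf13, -0.30 to 0.53 for Fgf12 and -0.047 to 0.33 for Fgf9. At P16 they were -0.35 to 0.28 for Fgf18, -0.14 to 0.48 for Fgf12 and -0.36 to 0.056 for Fgf9. Between days in control mice they were -0.29 to 0.45 for Fgf12, -0.13 to 0.87 for Fgf1 and -0.26 to 0.17 for Fgf9 (0.0042 in DESeq2). Between days in dMF1/2 mice they were -0.44 to 0.028 for Fgf10, -0.40 to 0.042 for Fgf7, -0.15 to 0.17 for Fgf11, -0.064 to 0.23 for Fgf13 and -0.21 to 0.50 for Fgf12. For the difference between genotypes they were -0.33 to 0.060 for Fgf13, -0.30 to 0.53 for Fgf12 and -0.69 to 0.92 for Fgf1. The cause was not tested. Leaving out replicate 1 of both genotypes at P14 was chosen after seeing the data.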
